A study of Mus musculus with 30 samples.

Results

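Egr3 B cells were B cells of mouse spleen that carried RNA of Egr3, a zinc-finger transcription factor gene switched on by antigen receptor signalling. They were picked by UMI counts (a UMI is a molecular tag that counts 1 captured RNA molecule). The rule also asked for a summed count of Egr3, Cd83, Il4i1 and Myo1e, which favours cells with RNA of several of them. At most 0.965% of the cells picked per library held Egr3 alone, which follows from the rule. A cell needed 200 or more detected genes with no more than 10% of UMIs from mitochondrial genes, at least 3 UMIs of Cd79a, Cd79b and Ms4a1 together, at least 1 UMI of Egr3, and at least 3 UMIs of Egr3, Cd83, Il4i1 and Myo1e together. Cells with any UMI of Myof or S1pr3 (marginal zone B cells), of Vpreb3 (immature B cells) or of Mki67 or Top2a (dividing cells) were left out, as were cells with more than 1 UMI of Cd3e, Cd3d and Cd3g. The rule found 1477 Egr3 B cells, 3.15% of the 46886 cells kept. They made up 10.7% of the 13844 B cells that met every condition other than those on Egr3, Cd83, Il4i1 and Myo1e, and the remaining 12367 cells of that gate, the other B cells, served as their reference.

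The spleens came from Smc3-cKO and Smc3-WT mice. The Smc3 protein is part of cohesin, a ring of proteins that folds chromatin into loops, and cKO stands for a conditional knockout. The labels give no Cre driver, no deleted part of Smc3 and no word on whether libraries stem from separate or pooled animals. Each p-value by genotype below thus measures only the spread between libraries, which may be technical. Where Egr3 B cells were set against other B cells of the same library, the p-value measures how that difference varied from library to library. That variation may be technical too. Splenocytes, with red blood cells removed, were run on a droplet 3′ kit in 2 libraries per genotype. An age of 6 to 8 weeks is given for the mice whose dendritic cells were sorted in the same series and not separately for these libraries. The other 26 samples of the series, on dendritic cells and their precursors, were not analysed here.

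A B cell that meets antigen signals through its receptor, calcium, MAP kinases and NF-kB, and within hours transcribes immediate early genes such as the Egr and Nr4a families, then Myc. Myc in turn drives ribosome building and nutrient use as the cell grows. In the spleen, follicular B cells that have just met antigen move to the border of the T cell zone. Of the genes in the rule, Cd83 encodes a surface protein that stabilises MHC class II, Il4i1 a secreted amino acid oxidase, and Myo1e a motor protein that links actin to membranes.

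The libraries held 40367056 to 51299056 UMIs over 9074 to 16096 barcodes, and 36 to 61 barcodes were shared between any 2 of them, at most 0.432% of the smaller library. Smc3-WT replicate 1 stood apart. Its Egr3 B cells had a median of 7.40% mitochondrial UMIs, against 5.02% and 4.11% in Smc3-cKO replicates 1 and 2 and 3.47% in Smc3-WT replicate 2. The 8 red cell and platelet markers listed summed to 8392 CPM (UMIs scaled to the library's total) in them, against 1255 and 188 CPM in the Smc3-cKO libraries and 944 CPM in Smc3-WT replicate 2. The 12 T cell markers listed summed to 326 CPM in that library and to 97.3 to 108 CPM in the others. Values without this library stand beside several of the results below.

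Egr3 B cells numbered 238 and 518 in the Smc3-cKO libraries and 271 and 450 in the Smc3-WT libraries. Their median depth was 4643 and 3161 UMIs per cell in Smc3-cKO and 3041 and 3106 in Smc3-WT, against 3906.5, 2470, 2689 and 2553 in the other B cells of the same libraries in the same order. A cell with more UMIs has more chances to show Egr3, so depth enters the rule. Scrublet, a doublet caller, marked 6, 18, 1 and 10 Egr3 B cells, or 0.369 to 3.47%, against 1.09 to 3.79% of the other B cells.

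The values that chose the cells are a description and carry no test. Egr3 stood at 477 and 703 CPM in the Smc3-cKO and at 389 and 621 CPM in the Smc3-WT Egr3 B cells. Of these cells, 48.7% and 47.5% in Smc3-cKO and 72.3% and 58.0% in Smc3-WT held a single Egr3 UMI. Myo1e was seen in 91.3 to 94.8% of Egr3 B cells and in 62.7 to 77.3% of the other B cells, so it contributed to most sums. Cd83 was seen in 58.7 to 69.3%, against 25.0 to 31.1% of the other B cells. Il4i1 was seen in 24.9 to 29.8%, against 10.5 to 11.4%. All 4 genes together were found in 52 and 89 Smc3-cKO and 47 and 74 Smc3-WT cells, 16.4 to 21.9% of the Egr3 B cells.

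The threshold cut through a continuum. Just inside it, with a sum of 3 UMIs, were 22 and 62 Smc3-cKO and 39 and 63 Smc3-WT cells. Just outside it, with Egr3 and a sum of 2, were 13 and 56 Smc3-cKO and 38 and 47 Smc3-WT cells. Before the conditions on Myof, S1pr3, Vpreb3, Cd3 genes, Mki67 and Top2a were applied, 3009 B cells had the required Egr3 counts, so these conditions removed 1532 of them. Vpreb3 was present in 917 of those, Myof or S1pr3 in 568, Mki67 or Top2a in 275 and more than 1 Cd3 UMI in 210, with overlaps.

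Egr3 was not confined to the gate. An Egr3 UMI was found in 16.8 to 23.4% of B cells with Myof or S1pr3 UMIs and in 10.7 to 12.8% of B cells with Vpreb3 UMIs. It was also found in 3.02 to 4.62% of T cells (median depth 3156.5 to 4723 UMIs). In myeloid cells defined by Lyz2, of median depth 2927 to 4840 UMIs, it was found in 0.287 to 3.92%, that is in 1 or 2 cells per library. The share with an Egr3 UMI in the gate before the cut on the sum was 13.2% and 14.4% in Smc3-cKO and 9.22% and 13.2% in Smc3-WT, above the myeloid and T cell shares in each library.

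By genotype, Egr3 B cells were 12.1% and 12.2% of the gate in the Smc3-cKO libraries, with exact 95% binomial intervals of 10.7 to 13.6% and 11.3 to 13.2%. They were 7.39% and 11.3% in the Smc3-WT libraries, with intervals of 6.56 to 8.28% and 10.4 to 12.4%. These intervals cover counting error only. The means were 12.1% ± 0.105 in Smc3-cKO and 9.37% ± 2.80 in Smc3-WT (SD, n = 2 each), a difference of 2.77 percentage points. The groups did not overlap, yet the two-sided exact permutation test gave p = 0.33, the smallest value that 2 libraries against 2 allow. Without Smc3-WT replicate 1 the difference was 0.794 points. When every cell was thinned to 1500 UMIs, Egr3 B cells were 5.20% and 7.005% of the gate in Smc3-cKO and 3.03% and 5.49% in Smc3-WT, and the libraries overlapped (exact permutation p = 0.667). Thinning left out 1, 6, 0 and 2 Egr3 B cells and 49, 194, 74 and 246 other B cells, in the order Smc3-cKO replicates 1 and 2 and Smc3-WT replicates 1 and 2. At this depth and number of libraries a difference in share between the genotypes was not detectable.

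**Figure D1:**
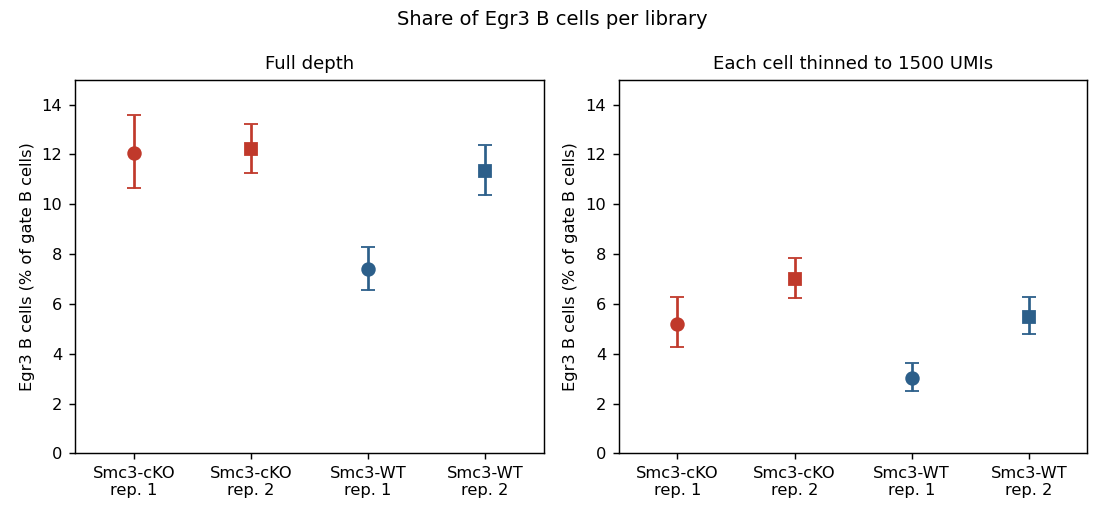
Egr3 B cells as a percentage of the gate's B cells in each library (y axis, %), at full depth (left) and with each cell thinned to 1500 UMIs (right), with red for Smc3-cKO, blue for Smc3-WT, and bars for exact 95% binomial intervals. At full depth Smc3-WT replicate 1 lies lowest at 7.39% and the other libraries lie between 11.3% and 12.2%, while after thinning the genotypes overlap.

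Genes outside the rule were compared between Egr3 B cells and the other B cells on UMIs summed per library, with the library as a block (quasi-likelihood F test of edgeR, p adjusted by Benjamini-Hochberg, 8 sums). Of 11018 genes tested, 946 were higher in Egr3 B cells (8.59%) and 821 were lower (7.45%), 16% in all. The direction was shared by all 4 libraries for 879 of the 946 and for 787 of the 821. A difference of at least 2-fold was seen for 101 of the higher and 61 of the lower genes. Without Smc3-WT replicate 1 the test called 1048 higher and 908 lower. Levels below are CPM scaled by edgeR's TMM factors, log2 values are Egr3 B cells over other B cells with their standard error (SE), and lists of genes are described by counts of their tested members, with no test of a list. The counts of each list are to be read beside the shares over all genes tested, 8.59% higher and 7.45% lower.

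The label of recent activation was checked on activation genes that the rule did not use. The cells were higher for Egr1, Egr2, Nr4a1, Myc and Nfkbid in all 4 libraries and for Cd69 in 3, whereas Cd86 and Ccr7 did not pass. When the cells had been activated was not measured. An Egr1 UMI was seen in 11.4 to 28.8% of Egr3 B cells per library, against 2.11 to 3.39% of other B cells. An Nr4a1 UMI was seen in 14.0 to 29.0%, against 4.10 to 5.65%, so for each gene most Egr3 B cells held no UMI. Egr1, of the same family as Egr3, stood at 116 and 251 CPM in Smc3-cKO and 56.4 and 195 CPM in Smc3-WT Egr3 B cells. The other B cells held 11.8 and 18.4 CPM and 12.3 and 14.0 CPM (log2 3.42, SE 0.17, adjusted p = 1.12e-08 by edgeR). Every library was higher, and Smc3-WT replicate 1 had the smallest gap. Egr2, of the same family, stood at 16.5 and 44.9 CPM in Smc3-cKO and 7.78 and 28.7 CPM in Smc3-WT libraries, against 0.812 and 2.32 CPM and 3.03 and 1.25 CPM (log2 3.70, SE 0.38, adjusted p = 8.83e-06). These levels rest on 8 to 84 UMIs per library.

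Nr4a1 encodes Nur77, an orphan nuclear receptor that reports antigen receptor signalling. It stood at 107 and 88.2 CPM in Smc3-cKO and 57.4 and 58.2 CPM in Smc3-WT Egr3 B cells, against 17.5 and 17.9 CPM and 20.6 and 17.1 CPM in the other B cells (log2 2.08, SE 0.15, adjusted p = 3.06e-07). Myc, the growth regulator, stood at 85.2 and 109 CPM in Smc3-cKO and 32.1 and 74.2 CPM in Smc3-WT libraries, against 14.1 and 28.0 CPM and 9.09 and 20.6 CPM (log2 2.06, SE 0.13, adjusted p = 8.03e-08). Egr3 B cells lay above the other B cells in each library for both genes, with no overlap between the cell groups.

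Among the surface proteins, Cd69, an early activation antigen that holds lymphocytes in tissue, stood at 41.3 and 65.2 CPM in Smc3-cKO and 58.4 and 51.5 CPM in Smc3-WT Egr3 B cells, against 47.9 and 28.8 CPM and 38.2 and 42.2 CPM. It was lower in Smc3-cKO replicate 1 and higher in the other libraries (log2 0.51, SE 0.16, adjusted p = 0.0412), and the call was lost when Smc3-cKO replicate 2, Smc3-WT replicate 1 or Smc3-WT replicate 2 was left out, with adjusted p of 0.0682 to 0.389. Cd86, a co-stimulatory ligand for T cells, averaged 76.9 ± 25.7 CPM in Egr3 B cells and 72.1 ± 13.6 CPM in other B cells (SD, n = 4 libraries, log2 0.08, SE 0.10, adjusted p = 0.661). Ccr7, the receptor that draws B cells to the T cell zone, averaged 63.5 ± 8.08 CPM and 66.4 ± 12.3 CPM (log2 -0.03, SE 0.09, adjusted p = 0.860). Of 18 tested surface activation genes of 19 listed, 4 were higher, namely Il21r, Slamf1, Cd274 and Cd69, and Icosl was lower. The other 13 did not pass.

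Genes of B cell identity were compared next. Cd22, an inhibitory coreceptor, and the lineage factors Pax5 and Ebf1 did not pass, with log2 values of -0.07, -0.07 and -0.09. Ebf1 passed without Smc3-WT replicate 1 (log2 -0.14, adjusted p = 0.0166 by edgeR). Cd37, a tetraspanin, was lower by log2 -0.20 (SE 0.05, adjusted p = 0.0214) and lost its call without Smc3-cKO replicate 2 (adjusted p = 0.171) or Smc3-WT replicate 2 (adjusted p = 0.195). Its call was also lost against other B cells matched for depth (log2 -0.17, adjusted p = 0.0672 by edgeR). The same held against other B cells with no UMI of the 4 rule genes (log2 -0.08) and with no library block (log2 -0.19). Fcmr, the receptor for IgM, was higher, at 615 and 492 CPM in Smc3-cKO and 490 and 605 CPM in Smc3-WT libraries, against 365 and 274 CPM and 330 and 346 CPM (log2 0.75, SE 0.06, adjusted p = 3.67e-07). Each library had more Fcmr in its Egr3 B cells, and the 2 cell groups did not overlap.

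The 15 genes with the largest rise among those reaching 100 CPM were led by Egr1, Nfkbid, Rilpl2 and Dusp2. Nfkbid encodes an inhibitor of NF-kB that acts in the nucleus. It stood at 218 and 98.3 CPM in Smc3-cKO and 98.3 and 125 CPM in Smc3-WT Egr3 B cells, against 34.2 and 27.7 CPM and 29.6 and 25.9 CPM in the other B cells (log2 2.15, SE 0.12, adjusted p = 5.37e-08). Rilpl2, of a family that binds Rab GTPases, stood at 178 and 124 CPM and 93.4 and 131 CPM, against 38.0 and 26.99 CPM and 28.5 and 35.3 CPM (log2 2.03, SE 0.09, adjusted p = 5.89e-09). Dusp2, a phosphatase that switches off MAP kinases, stood at 166 and 95.6 CPM and 83.7 and 112 CPM, against 44.8 and 38.2 CPM and 43.0 and 38.0 CPM (log2 1.46, SE 0.11, adjusted p = 4.97e-07). For these 3 genes every library of Egr3 B cells lay above every library of other B cells, and Smc3-WT replicate 1 was the lowest of the Egr3 B cells.

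The other 11 rose by log2 1.0 to 1.25. Transcription and chromatin regulators among them were Irf4, a dose-sensitive switch of B cell fate (log2 1.13, SE 0.08), Nfkbiz, another nuclear NF-kB inhibitor family member (1.16, SE 0.08), Hivep3, a zinc-finger protein (1.25, SE 0.11), and Kdm2b, a histone demethylase (1.22, SE 0.08). Signalling genes were Samsn1, an adaptor that dampens B cell activation, and Rasgef1b and Rabgef1, exchange factors for small GTPases. Others were Bcar3, an adaptor that binds proteins of the Cas family, and Plek, a substrate of protein kinase C. Bcar3 was well measured, at 1206 and 990 CPM in Smc3-cKO and 851 and 935 CPM in Smc3-WT libraries, against 511 and 424 CPM and 476 and 446 CPM (log2 1.09, SE 0.06, adjusted p = 4.24e-08). Cdk6, a kinase of the early cell cycle (1.05, SE 0.07), and the sialyltransferase gene St8sia6 (1.05, SE 0.09) completed the list.

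**Figure D2:**
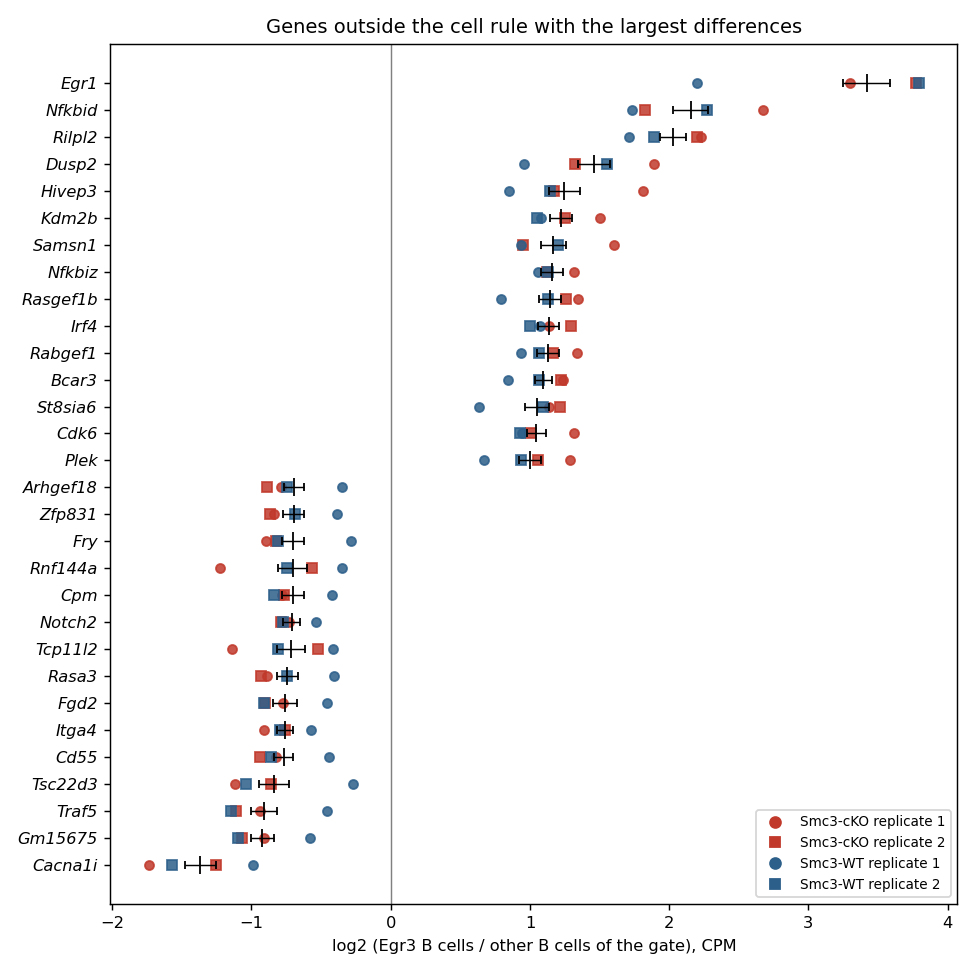
Log2 ratio of Egr3 B cells over other B cells (x axis) for the 15 highest and 15 lowest named genes outside the rule, with red for Smc3-cKO, blue for Smc3-WT, circles for replicate 1, squares for replicate 2, and the black tick and bar for the fitted value and its SE. All 4 libraries fall on the same side of 0 for each gene, as the choice of genes required, and Smc3-WT replicate 1 is often nearest to 0.

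The 15 genes with the largest fall were led by Cacna1i, a T-type calcium channel gene, at 33.9 and 36.3 CPM in Smc3-cKO and 61.3 and 34.8 CPM in Smc3-WT Egr3 B cells, against 113 and 86.8 CPM and 121 and 103 CPM in the other B cells (log2 -1.37, SE 0.11, adjusted p = 6.47e-07). The cell groups did not overlap. The others fell by 0.69 to 0.92 on the log2 scale. They included Traf5, an adaptor of TNF receptors (log2 -0.91), Tsc22d3, a glucocorticoid-induced repressor (-0.84), Cd55, a complement inhibitor on the cell surface (-0.77), and Itga4, the alpha-4 integrin (-0.76). Regulators of small GTPases were Fgd2 (-0.76), Rasa3 (-0.74) and Arhgef18 (-0.69). Notch2, the receptor that directs marginal zone fate, was lower by -0.71, Cpm, carboxypeptidase M, by -0.70, the ubiquitin ligase gene Rnf144a by -0.70 and the scaffold gene Fry by -0.70. Gm15675 (-0.92), Tcp11l2 (-0.71) and Zfp831 (-0.70) were also on the list.

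Immediate early genes rose in part. Of 22 tested genes of 28 listed, 11 were higher, 1 was lower and 10 did not pass, with a median log2 of 0.47, against -0.00 over all genes tested. Beside Egr1, Egr2, Nr4a1, Myc and Dusp2, the higher genes were Nr4a3 (log2 2.92, SE 0.46), Ier2 (0.90), Junb (0.90), Zfp36l1 (0.65), Zfp36 (0.29) and Jund (0.19), and Klf6 was lower (-0.33). Fos, the partner of Jun proteins, was nearly absent, with 2 and 12 UMIs in Smc3-cKO and 1 and 10 UMIs in Smc3-WT over all Egr3 B cells, and did not reach the filter on low counts. Jun averaged 9.40 ± 3.24 CPM in Egr3 B cells and 7.05 ± 1.39 CPM in other B cells (SD, n = 4 libraries) and did not pass. Summed over the list, levels were 1971 and 2616 CPM in Smc3-cKO and 1177 and 2195 CPM in Smc3-WT Egr3 B cells, against 1185, 1615, 873 and 1450 CPM in the other B cells. In each library Egr3 B cells were higher, and the replicate 2 libraries were above the replicate 1 libraries within each genotype and cell group. Without Smc3-WT replicate 1, 14 genes of the list passed in either direction.

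Heat shock and dissociation genes, which tissue handling can induce, moved beside the immediate early genes: 5 of 10 tested were higher and 0 lower, with a median log2 of 0.36. The 5 were the chaperone genes Hsp90ab1 (0.51), Hsp90aa1 (0.46), Hspa5 (0.42), Dnaja1 (0.37) and Hspa8 (0.36), of which Hspa5 serves the endoplasmic reticulum. Summed over these genes, levels were 1393 and 2192 CPM in Smc3-cKO and 1153 and 2001 CPM in Smc3-WT Egr3 B cells, against 1076, 1456, 1041 and 1489 CPM in the other B cells. Here too the replicate 2 libraries were the higher. The part of tissue handling in the counts was not tested.

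NF-kB is the transcription factor family that carries the receptor's signal to survival and growth genes. Of 23 listed genes, all tested, 14 were higher and 1 was lower, with a median log2 of 0.46. Of the subunits, Rel, the c-Rel gene that is central to B cell growth, stood at 656 and 804 CPM in Smc3-cKO and 541 and 725 CPM in Smc3-WT Egr3 B cells, against 334 and 428 CPM and 339 and 396 CPM (log2 0.86, SE 0.06, adjusted p = 9.48e-08). The cell groups did not overlap. Nfkb1 (0.50) and Relb (0.55) were also higher. Genes of the NF-kB inhibitor family were higher as well, namely Nfkbid and Nfkbiz above, Nfkbie (1.09, SE 0.10), Nfkbia (0.46) and Bcl3 (0.35). Whether each of them inhibits the pathway in these cells was not measured. Tnfaip3, the A20 ubiquitin-editing enzyme gene (1.12, SE 0.12), was also higher. The known targets Bcl2a1b (1.35, SE 0.13) and Bcl2a1d (1.29, SE 0.17), whose reads may be shared because these copies are nearly identical, Icam1 (0.58) and Traf1 (0.61) were higher. In the complex that links the receptor to NF-kB, Bcl10 was higher (0.26) and Malt1 was lower (-0.25).

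The promoters of these NF-kB genes were searched because their members moved together. The 250 bases before each start site were taken from RefSeq (GRCm38.p6) and searched on both strands for the NF-kB motif. Of the 14 higher genes, 11 had a promoter in the table, and 6 of these 11 held a match: Bcl10, Nfkbia, Nfkbid, Nfkbie, Rel and Tnfaip3. A match was found before 4.46% of all genes in the table and before 5.27% of the genes tested here, and before 5.96% of all higher and 5.67% of all lower genes. The list was drawn up from known members and targets of the pathway. The AP-1 motif TGANTCA, the EGR motif GCGNGGGCG and the CRE motif TGACGTCA were searched as well. They were found before 4 (36.4%), 2 (18.2%) and 1 (9.09%) of the 11 genes, against 4.93%, 10.4% and 3.21% of the genes tested. Sites of Nfkbid, Nfkbie, Nfkbia, Tnfaip3 and Rel are shown, for Tnfaip3 1 of 2 sites. They are given on the strand of the gene, 5′ to 3′, with the match in capitals. The position is that of its first base from the start site (or 1 of several start sites). The pair of matches at Rel overlaps.
Nfkbid, chr7:30422170-30422199, plus strand, match at -226: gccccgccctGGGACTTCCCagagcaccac
Nfkbid, chr7:30422215-30422244, plus strand, match at -181: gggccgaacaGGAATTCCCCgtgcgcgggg
Nfkbie, chr17:45555584-45555613, plus strand, match at -106: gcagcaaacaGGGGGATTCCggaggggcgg
Nfkbia, chr12:55492657-55492686, minus strand, match at -29: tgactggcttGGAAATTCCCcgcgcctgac
Tnfaip3, chr10:19015411-19015440, minus strand, match at -12: gtgactggaatttccatcGGAAATCCCCct
Rel, chr11:23770970-23771219, minus strand, matches at -92 and -91: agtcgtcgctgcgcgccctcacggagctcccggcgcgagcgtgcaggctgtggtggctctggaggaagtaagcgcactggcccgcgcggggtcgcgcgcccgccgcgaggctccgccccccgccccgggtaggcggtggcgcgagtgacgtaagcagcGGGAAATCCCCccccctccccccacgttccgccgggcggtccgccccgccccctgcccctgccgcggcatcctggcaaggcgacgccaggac
A match is a run of letters and does not show that a factor binds there.

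The promoters of the higher immediate early genes were searched in the same way for the CArG box, the motif of serum response factor. Of the 11 higher genes, 8 had a promoter in the table, and Egr2 and Zfp36 held a match, as did Myo1e of the rule. The box was found before 1.62% of all genes in the table and before 1.39% of the genes tested. The sites are shown on the strand of the gene with the box in capitals, for Egr2 1 of 2 sites.
Egr2, chr10:67537787-67537816, plus strand, match at -72: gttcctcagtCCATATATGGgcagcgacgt
Zfp36, chr7:28379267-28379296, minus strand, match at -58: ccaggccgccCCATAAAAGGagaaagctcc
Myo1e, chr9:70207308-70207337, plus strand, match at -32: gctgaattctCCATTTATGGacagattgcc
The EGR motif GCGNGGGCG, searched on both strands, was found before 13.6% of the higher genes that had a promoter in the table, before 11.8% of the lower genes and before 10.4% of all genes tested. Of the 8 higher immediate early genes with a promoter, 3 (37.5%) held the EGR motif, 2 the CArG box and 1 the AP-1 motif. The NF-kB and CRE motifs were found before 0 of them. A match is again a description.

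Myc targets and ribosome biogenesis genes rose as a group: 25 of 28 tested were higher and 0 lower, with a median log2 of 0.64, and 26 passed without Smc3-WT replicate 1. Beside Myc, the largest were Polr1b, a subunit of the polymerase that makes ribosomal RNA, with log2 1.15 (SE 0.17, adjusted p = 0.000285), and the nucleolar genes Gnl3 (1.03, SE 0.14), Nop16 (0.93, SE 0.18) and Nolc1 (0.89, SE 0.13). Ncl, which encodes nucleolin, stood at 355 and 653 CPM in Smc3-cKO and 277 and 576 CPM in Smc3-WT Egr3 B cells, against 225 and 326 CPM and 216 and 365 CPM in the other B cells (log2 0.69, SE 0.08, adjusted p = 2.21e-05). Ncl was higher in each library, and the replicate 2 libraries had more of it in either cell group. Summed over the 28 genes, levels were 2659 and 3904 CPM in Smc3-cKO and 2067 and 3359 CPM in Smc3-WT Egr3 B cells, against 1602, 2236, 1571 and 2226 CPM in the other B cells.

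Genes of glycolysis and nutrient uptake were higher for 7 of 20 and lower for 1, with a median log2 of 0.18. The risers were Slc7a5, the large neutral amino acid transporter gene (1.16, SE 0.21), Hk2, the inducible hexokinase gene (0.96, SE 0.23), Tfrc, the transferrin receptor gene (0.74, SE 0.09), Pfkp, Ldha, Slc7a1 and Pgam1, while Gpi1 was lower (-0.30). Among cell cycle genes 4 of 20 were higher and 2 lower. Cdk6 and Ccnd2, the cyclin D2 gene (0.95, SE 0.06), which start the G1 phase, and Cdk4 and Pcna were higher, and Cdkn1b, an inhibitor of the cycle (-0.45), and Ccnd3 were lower. Mki67 and Top2a were barred by the rule. Of 15 survival genes, 7 were higher, led by Bcl2a1b and Bcl2a1d and including Bcl2l1 (0.63), Bcl2 (0.18) and the pro-death genes Bcl2l11 (0.51) and Bid (0.39). That count was 2 without Smc3-cKO replicate 2 and 4 without Smc3-WT replicate 2.

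Of 13 calcium and NFAT genes, 3 were higher and 3 lower. Nfatc1, the inducible NFAT factor, stood at 378 and 446 CPM in Smc3-cKO and 372 and 416 CPM in Smc3-WT Egr3 B cells, against 184 and 219 CPM and 192 and 230 CPM (log2 0.96, SE 0.06, adjusted p = 5.37e-08), while Nfatc2 was lower (-0.52). The 2 NFAT genes thus differed in direction. Of 23 genes of receptor signalling, 6 were higher and 6 lower with a median log2 of -0.07. Cd72, an inhibitory coreceptor (0.71, SE 0.07), Blk, a Src-family kinase (0.55, SE 0.05), and Pik3ap1 (0.44) were higher, and Syk, the kinase that carries the receptor's signal (-0.50, SE 0.07), Siglecg (-0.45) and Bank1 (-0.33) were lower.

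Homing genes were among those that fell. Of 13 tested migration genes, 6 were lower and 3 higher, with a median log2 of -0.24. Klf2, the factor that maintains S1pr1, stood at 236 and 289 CPM in Smc3-cKO and 208 and 320 CPM in Smc3-WT Egr3 B cells, against 366 and 472 CPM and 213 and 502 CPM in the other B cells (log2 -0.53, SE 0.09, adjusted p = 0.000534). In Smc3-WT replicate 1 the 2 cell groups were close for Klf2. Itgb7 (-0.99, SE 0.10), the partner of Itga4, Ccr6 (-0.45) and S1pr1 (-0.24), the receptor for leaving tissue, were lower. Rgs2 (0.65), Gpr183 (0.33), the oxysterol receptor that guides activated B cells, and Cxcr5 (0.21), the follicle-homing receptor, were higher.

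Genes of other B cell stages included a few of the larger differences. Rgs13, a G protein regulator known from germinal centre B cells, stood at 57.1 and 51.3 CPM in Smc3-cKO and 29.2 and 59.5 CPM in Smc3-WT libraries, against 12.2 and 6.77 CPM and 9.28 and 5.82 CPM (log2 2.58, SE 0.21, adjusted p = 8.92e-07). It was 1 of 4 higher genes of 12 on the germinal centre list, on which 2 were lower. Bhlhe40, a repressor listed for B1 and memory cells, stood at 47.1 and 45.4 CPM and 33.1 and 56.8 CPM, against 10.5 and 12.9 CPM and 10.2 and 13.1 CPM (log2 1.95, SE 0.14, adjusted p = 2.27e-07), and no other gene of its 12 was higher. Myb, a factor of immature and dividing cells listed for transitional B cells, stood at 78.6 and 79.6 CPM and 74.0 and 102 CPM, against 20.8 and 22.6 CPM and 27.7 and 26.5 CPM (log2 1.78, SE 0.11, adjusted p = 5.37e-08). None of these 3 genes overlapped between the cell groups.

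On the plasma cell list Irf4 was higher and Creb3l2 (-0.68) and Jchain, the joining chain of secreted antibody (log2 -2.46, SE 0.50, adjusted p = 0.00311), were lower. Jchain stood at 27.3 and 15.5 CPM in Smc3-cKO and 192 and 17.4 CPM in Smc3-WT Egr3 B cells, against 819 and 148 CPM and 171 and 228 CPM, so that Smc3-WT replicate 1 went the other way. Igkc (-0.58) and Ighm (-0.21) were also lower, and 0 of 10 constant region genes were higher. Of 12 marginal zone genes 3 were higher and 4 lower, of 13 follicular genes 2 and 4, and of 12 MHC class II genes 1 and 1. Of 18 interferon response genes 0 were higher and 3 lower, and of 13 cohesin genes Pds5a was higher (0.18) and Mau2 lower (-0.23). Over all genes tested 8.59% were higher and 7.45% lower. The counts of the MHC class II and cohesin lists lay near those shares, as did those of the B1 and memory list. Of 21 B lineage factors 4 were higher, led by Irf4 and Mef2c (0.35), and 4 lower, among them Bcl11a (-0.31).

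Markers of other cells were examined in the same cells. Of 42 tested T, NK, myeloid, dendritic and red cell or platelet markers, Lck alone was higher (0.82, SE 0.14), at 50.4 and 49.7 CPM in Smc3-cKO and 52.5 and 36.8 CPM in Smc3-WT libraries, against 23.1 and 23.4 CPM and 43.3 and 21.1 CPM, and none was lower. Lck encodes a Src-family kinase of T cells that some B cells also transcribe. The T cell receptor gene Trac had 8 to 14 UMIs per library in all Egr3 B cells, and the dendritic cell gene Xcr1 had 0 UMIs in 3 libraries and 2 in Smc3-WT replicate 2. Sirpa, also on the dendritic cell list, had 34 to 41 UMIs per library. The 12 T cell markers summed to 108, 97.3, 326 and 108 CPM in Egr3 B cells, against 90.6, 114, 421 and 89.2 CPM in the other B cells, in the order Smc3-cKO replicates 1 and 2 and Smc3-WT replicates 1 and 2. In the same order the 7 NK markers summed to 74.0, 18.1, 83.1 and 12.3 CPM in Egr3 B cells, against 49.6, 42.9, 111 and 31.5 CPM in the other B cells. The 9 myeloid markers summed to 176, 197, 272 and 620 CPM, against 683, 472, 407 and 227 CPM, higher in Egr3 B cells in Smc3-WT replicate 2 alone. The 10 dendritic cell markers summed to 51.6, 56.4, 56.4 and 67.3 CPM, against 74.0, 53.5, 118 and 57.0 CPM. They were higher in Egr3 B cells in the replicate 2 libraries. The part of such RNA in the values was not tested.

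**Figure D3:**
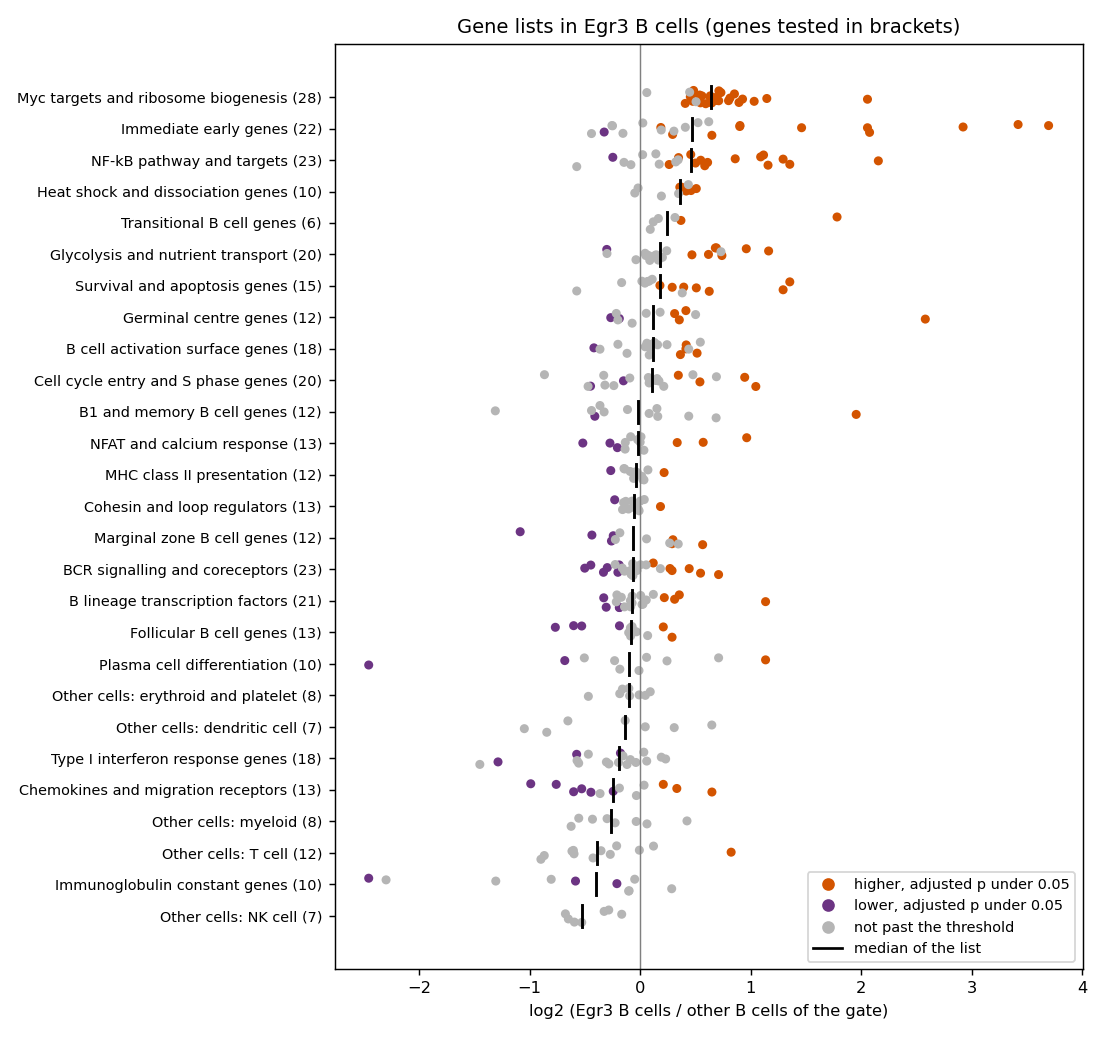
Log2 of Egr3 B cells over other B cells (x axis) for each tested gene of 27 lists (rows, ordered by median), with orange for higher and purple for lower at adjusted p under 0.05, grey for not passing and black ticks for list medians. Myc targets, immediate early genes and NF-kB genes have the highest medians, 0.64, 0.47 and 0.46.

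Egr3 B cells differed among themselves with the sum of the 4 rule genes. This is a description on plain CPM, since the sum is part of the rule and grows with depth. Cells with a sum of 3 to 4 were 15.5 to 29.2% of Egr3 B cells per library, those with 10 or more 35.3 to 55.0%. Nr4a1 stood at 25.7 and 29.5 CPM in Smc3-cKO and 16.2 and 20.2 CPM in Smc3-WT cells with 3 to 4 UMIs, and at 152 and 147 CPM in Smc3-cKO and 89.6 and 98.4 CPM in Smc3-WT cells with 10 or more. Egr1 stood at 38.6 and 98.2 CPM and 48.6 and 70.7 CPM at the low sums, and at 166 and 383 CPM and 70.8 and 303 CPM at the high ones. Both genes stood highest in the cells with the highest sums in each library. For Nr4a1 the cells with 3 to 4 UMIs, on 4 to 9 Nr4a1 UMIs per library, lay near the other B cells. The other B cells held 17.5 and 17.9 CPM in Smc3-cKO and 20.6 and 17.1 CPM in Smc3-WT (TMM-scaled), more than the low-sum cells in Smc3-WT replicate 1.

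Myc, Nfkbid and Irf4 were also highest at sums of 10 or more in each library. Irf4 stood at 186 and 225 CPM in Smc3-cKO and 152 and 165 CPM in Smc3-WT cells with sums of 10 or more, and at 51.4 and 75.3 CPM and 36.4 and 74.1 CPM in cells with sums of 3 to 4. Klf2 ran the other way, with 196 and 199 CPM in Smc3-cKO and 194 and 262 CPM in Smc3-WT at the high sums, and 289 and 429 CPM and 251 and 367 CPM at the low sums. In other B cells with no UMI of the 4 genes, Klf2 stood at 382 and 566 CPM in Smc3-cKO and 236 and 573 CPM in Smc3-WT. Irf4 stood there at 59.4 and 54.7 CPM in Smc3-cKO and 40.3 and 52.7 CPM in Smc3-WT. In the replicate 1 libraries this was above the Egr3 B cells with sums of 3 to 4. Median depth was 4978, 3631, 4038 and 3588 UMIs in cells with sums of 10 or more and 4130, 2703, 2797 and 2663 UMIs in cells with sums of 3 to 4, so depth moved with the strata.

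**Figure D4:**
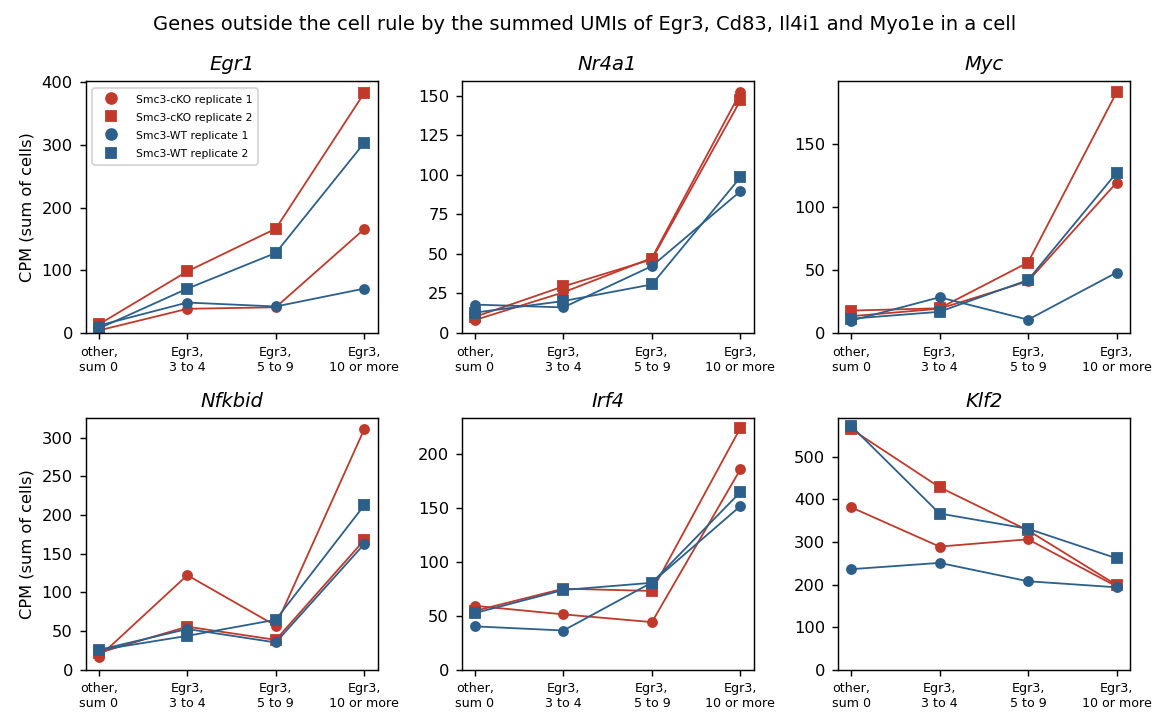
Level in plain CPM (y axes, from 0) of 6 genes outside the rule in other B cells with no UMI of the 4 rule genes and in Egr3 B cells by the summed UMIs of those genes (x axes, low to high), with red for Smc3-cKO, blue for Smc3-WT, circles for replicate 1 and squares for replicate 2. Egr1, Nr4a1, Myc, Nfkbid and Irf4 are highest and Klf2 lowest at sums of 10 or more in each library.

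The effect of the Smc3 genotype inside Egr3 B cells was tested on 9049 genes, 2 libraries against 2, and 0 were called (0%). The smallest adjusted p was 0.9997 (quasi-likelihood F test of edgeR, p adjusted by Benjamini-Hochberg), an unadjusted p under 0.05 was found for 167 genes, while DESeq2 called 2, Plcb4 and S100a9. Smc3 itself, the targeted gene, stood at 102 and 110 CPM in Smc3-cKO and 107 and 101 CPM in Smc3-WT Egr3 B cells (log2 Smc3-cKO over Smc3-WT 0.03, SE 0.21, adjusted p = 0.9997), and the libraries overlapped. A 3′ tag outside the deleted part would not show a deletion, so this checks nothing about the genotype labels. Of 13 cohesin and loop genes, Smc3 included, 0 passed, with log2 values of -0.16 to 0.12.

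Plcb4, a phospholipase C gene, had the lowest p. It stood at 54.1 and 60.4 CPM in Smc3-cKO and 10.04 and 2.01 CPM in Smc3-WT Egr3 B cells, on 65, 114, 10 and 3 UMIs (log2 3.39, SE 0.52, unadjusted p = 0.000186, adjusted p = 0.9997 by edgeR). Both Smc3-cKO libraries lay above both Smc3-WT libraries. DESeq2 called it with log2 3.37 (SE 0.64, adjusted p = 0.00127), and edgeR called it without Smc3-WT replicate 1 (log2 4.79, adjusted p = 0.0285). The other B cells held 77.2 and 54.8 CPM in Smc3-cKO and 5.97 and 5.30 CPM in Smc3-WT, and the genotype effect did not differ between the 2 cell groups beyond its error (difference -0.06 log2, SE 0.57, adjusted p = 1.0 by edgeR). In both cell groups the Smc3-cKO libraries lay above the Smc3-WT libraries.

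None of the activation genes passed by genotype. Nr4a1 stood at 108 and 87.4 CPM in Smc3-cKO and 59.2 and 58.3 CPM in Smc3-WT Egr3 B cells (log2 0.73, SE 0.23, unadjusted p = 0.0142, adjusted p = 0.9997 by edgeR), and the libraries did not overlap. Myc stood at 85.7 and 109 CPM and at 33.1 and 74.4 CPM (log2 0.83, SE 0.36, unadjusted p = 0.0497, adjusted p = 0.9997 by edgeR), and its log2 was 0.41 without Smc3-WT replicate 1. Egr1 stood at 116 and 249 CPM in Smc3-cKO and at 58.2 and 195 CPM in Smc3-WT (log2 0.52, SE 0.52), where the replicate 2 library was the higher in each genotype. Without Smc3-WT replicate 1 the log2 of Egr1 was -0.07, and without Smc3-cKO replicate 2 it was -0.16. Egr2 had a log2 of 0.70 (SE 0.60), against 0.16 without Smc3-WT replicate 1 and -0.23 without Smc3-cKO replicate 2, and Nfkbid had one of 0.47 (SE 0.36), against -0.21 without Smc3-cKO replicate 1. Nr4a1 kept a log2 of 0.59 to 0.86 with any library left out. Of 20 immediate early genes tested, 18 had a positive log2 and 0 passed, with a median of 0.45, against 48.9% positive and a median of -0.01 over all genes tested. This rested on single libraries: without Smc3-WT replicate 1, 11 of 21 were positive with a median of 0.11, and without Smc3-cKO replicate 2, 10 of 19 with a median of 0.06. Without Smc3-cKO replicate 1 the median was 0.59, and without Smc3-WT replicate 2 it was 0.86. In 6 of the 20 both Smc3-cKO libraries were above both Smc3-WT libraries, which held for 12.3% of all genes tested. The 28 Myc targets had a median of 0.25 (-0.04 without Smc3-WT replicate 1 and -0.01 without Smc3-cKO replicate 2) and the 22 NF-kB genes of 0.07, with 0 passing in each.

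Other genes of the cells gave values by genotype from small to large, in either direction, and none passed in the main edgeR fit. Pard3b stood at 274 and 304 CPM in Smc3-cKO and 122 and 166 CPM in Smc3-WT. Its log2 was 0.998 (SE 0.22, unadjusted p = 0.00206, adjusted p = 0.9997 by edgeR). Iglc1 (log2 -1.07, SE 0.28), Jchain (-2.32, SE 0.91), Igha (-3.61, SE 1.52) and Hist1h1e (-2.38, SE 0.44) had negative values. The rule genes chose the cells, so their levels by genotype are a description. Cd83 stood at 667 and 672 CPM in Smc3-cKO and 519 and 596 CPM in Smc3-WT, and Il4i1 at 118 and 110.2 CPM and at 139 and 148 CPM. Myo1e stood at 1598 and 1238 CPM in Smc3-cKO and 1520 and 1440 CPM in Smc3-WT. Of the other activation genes, Cd86 had a log2 of 0.54 (SE 0.32), Cd69 -0.05 (SE 0.29) and Ccr7 -0.12 (SE 0.25). None of these 3 genes passed. Markers of other cells did not pass either, and some of them differed widely between libraries. S100a9, a neutrophil gene, stood at 23.3 and 38.1 CPM in Smc3-cKO and 75.3 and 235 CPM in Smc3-WT (log2 -2.32, SE 0.51), and edgeR called it without Smc3-WT replicate 1 (log2 -2.88, adjusted p = 0.0285). Hba-a1, a haemoglobin gene, stood at 297 and 48.7 CPM and at 1697 and 210 CPM (log2 -2.48, SE 1.0, and -0.30 without Smc3-WT replicate 1), so that the genotypes overlapped. The macrophage genes Lyz2 and Adgre1 had log2 values of -0.19 and 0.14. The 9 myeloid markers summed to 176 and 197 CPM in Smc3-cKO and 272 and 620 CPM in Smc3-WT, and the 8 red cell and platelet markers to 1255 and 188 CPM and to 8392 and 944 CPM. Their part in the genotype values was not tested.

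**Figure D5:**
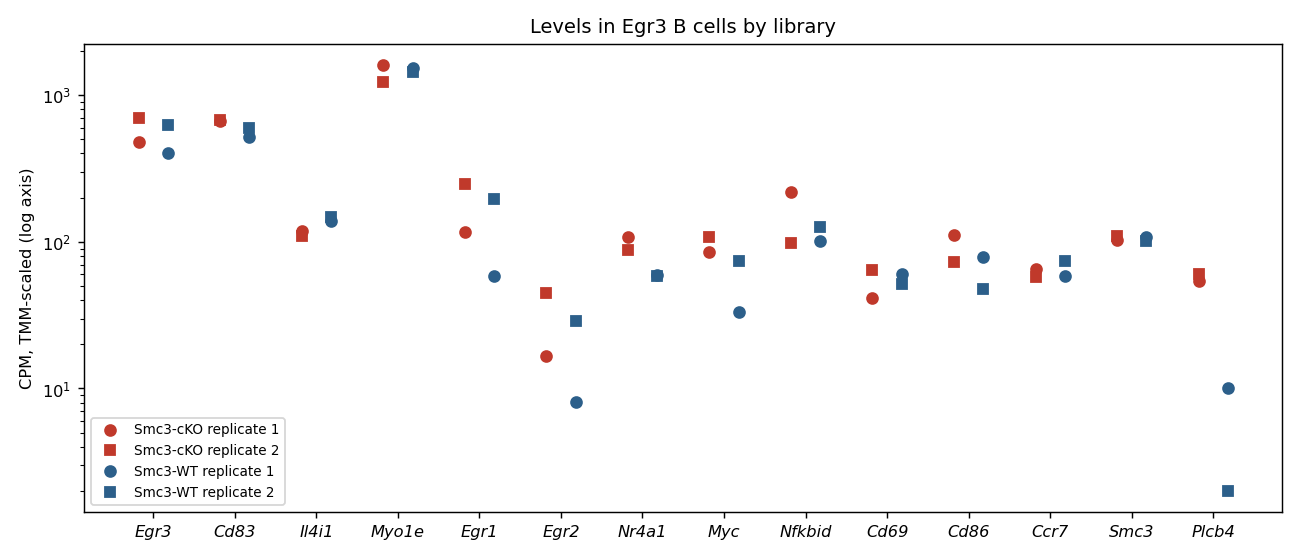
Level in Egr3 B cells (y axis, TMM-scaled CPM, log axis) of the rule genes, activation genes, Smc3 and Plcb4 in each library, with Smc3-cKO in red left of Smc3-WT in blue, circles for replicate 1 and squares for replicate 2. Plcb4 and Nr4a1 separate the genotypes without overlap (54.1 and 60.4 against 10.04 and 2.01 CPM for Plcb4), while Egr1 splits by replicate number.

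Whether the genotype acted differently in Egr3 B cells and in other B cells was tested as an interaction on 11756 genes, and 0 were called (0%). The smallest adjusted p was 0.204, for S100a9 (quasi-likelihood F test of edgeR, p adjusted by Benjamini-Hochberg), an unadjusted p under 0.05 was found for 495 genes, while DESeq2 called 0 (65 unadjusted). Of the activation genes, Nr4a1 had a difference of 0.82 log2 (SE 0.22, unadjusted p = 0.00241, adjusted p = 0.989 by edgeR), and Cd86 had 0.54 (SE 0.17, unadjusted p = 0.00785, adjusted p = 0.989 by edgeR). Myc had 0.38 (SE 0.25) and Egr1 0.41 (SE 0.35). In the other B cells Nr4a1 stood at 17.5 and 17.9 CPM in Smc3-cKO and 20.6 and 17.1 CPM in Smc3-WT.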

How the data were processed

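UMI counts per gene and barcode were deposited by the authors for 4 libraries of splenocytes. Per the file headers they were made with Cell Ranger 7.0.0, and per the submitters' processing notes the build was mm10. The counts are whole and unscaled, over 32285 genes. The filter on barcodes is not given in the sources used here, and the lowest total per barcode was 500 UMIs. PCR copies are already merged by UMI.

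Counts of the cells that met the rule were summed per library, 1010933 to 1880154 UMIs for Egr3 B cells and 7325444 to 10373303 for other B cells. Sums were tested with edgeR 4.0.16 in R 4.3.3 (filterByExpr, TMM, quasi-likelihood F test, Benjamini-Hochberg at 0.05). The cell comparison had the library as a block, and the 15 genes of the rule were left out of its test and adjustment. The interaction used the same 8 sums. SE is the absolute log2 divided by the square root of F. DESeq2 1.42.0, other filters, other cell cuts, doublets called by Scrublet in scanpy 1.11.5 and each library left out were alternatives. Doublets were kept in the main result. The edgeR fits of the genotype, cell and interaction comparisons were also run on simulated counts with the same spread for all genes. No other step was simulated. Of 100 genes changed 2-fold, 26, 90 and 52 were recovered in that order, so most simulated 2-fold genotype differences were missed. Of 100 genes changed 4-fold, 89, 98 and 82 were recovered. False calls numbered 7, 5 and 2. In the data Plcb4, at a genotype log2 of 3.39, did not pass in the main fit. The recovered shares therefore need not hold for the real counts.

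Named genes were those past the threshold with 1 direction in 4 libraries and 100 CPM in the higher group, the 15 largest folds each way, without immunoglobulin segments, ribosomal protein and mitochondrial genes, plus a set of activation and B cell genes, Smc3 and up to 4 members per list. Where a list is described, further members are named. Plcb4, S100a9, Hba-a1 and Pard3b lie outside the rule and were chosen after their values were seen. So were Fos, Jun, Ncl, Trac, Xcr1, Sirpa, Lyz2, Adgre1, Hist1h1e and, by genotype, Iglc1, Jchain and Igha. The members and the 27 gene lists were chosen with earlier results of these data known. Listed CPM sums and strata are plain CPM, and other levels are TMM-scaled.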

Additional observations from a re-analysis of the deposited data

How the results depend on the processing

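The Egr3 B cell comparison called 1767 genes, and these calls kept their direction under every alternative run wherever they were tested, except 1 gene when the other B cells were limited to those with no UMI of the 4 rule genes. The count was 1036 with DESeq2, 1154 with at most 5% mitochondrial UMIs and 133 with no library block, and 992 to 1956 with a library left out. It was 1567 against other B cells matched for depth, with 1390 of the 1767 genes still called. Without the block, the spread between libraries enters the error by construction. With no filter on low counts 739 genes were higher and 1244 lower, and the median of all genes moved to -0.16. Of the results for single named genes in this comparison, 18 lost and 3 gained a call over all alternatives, 8 of the losses with no library block and 6 of them being Cd69 outside that setting. Over all lists, comparisons and alternatives, 116 list counts moved by over 1.5 times and 639 did not. The genotype comparison called 0 genes, against 2 with DESeq2, 42 with no filter on low counts (2 higher, 40 lower), 1 with at most 5% mitochondrial UMIs (S100a9) and 0 to 3 with a library left out. The interaction called 0 genes, against 10 with depth-matched other B cells and 6 to 35 with a library left out, where a genotype is left with 1 library that is assumed to vary like the others. The cause of these shifts was not tested. The difference in share kept its sign under every alternative, from 0.794 to 4.75 points with a library left out. The cut at 2 Egr3 UMIs was chosen after seeing the data, and it gave 1581 and 0 genes in the cell and genotype comparisons and a difference in share of 2.89 points.

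Replicate numbers pair the libraries by name only. Replicate 1 minus replicate 2 correlated between the genotypes over genes, r = 0.377 over 9049 genes and 0.550 over the 3878 genes above 50 CPM, a hint from the data and not the design. With the replicate block the genotype comparison called 36 genes, 5 higher and 31 lower, among them Plcb4, Pard3b, haemoglobin genes and S100a8.

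With 238 to 518 cells per library, genes of few UMIs were measured poorly.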
